A study of Mus musculus with 6 samples.

Results

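The genes described here are 32 named genes of NF-kB signalling and inflammation, chosen by name: 22 components of the pathway and 10 cytokines and chemokines that it induces. All probe sets with a single gene symbol that carried one of these names were taken, which gave 32 probe sets of 31 genes, out of 28815 probe sets and 19935 genes on the array. Nfkb1 had no such probe set and is not analysed here, and Socs3 had 2. The study measured RNA of hematopoietic stem cells (HSC), which renew themselves in the bone marrow and give rise to every type of blood cell, and its title asks which genes P-selectin, the adhesion receptor encoded by Selp, regulates in them. Wild-type (WT) cells and cells lacking Selp (Selp-/-), both labelled C57BL/6, were each measured on 3 arrays that the titles number 1 to 3. The sources used here do not give ages, treatments or how the HSC were sorted. Whether a genotype's 3 arrays stand for 3 mice is not stated, nor what a number stands for, so every p-value reflects the spread among these 6 samples alone, and that spread may be technical. No single-symbol probe set carried the name Selp, so the genotype labels were not checked by their target.

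NF-kB is a family of dimeric transcription factors built from Rel-homology subunits. In resting cells most dimers are held in the cytoplasm by IkB proteins. Toll-like receptors, the IL-1 receptor and TNF receptors activate the IKK complex, which marks IkB proteins for degradation, and the freed dimers enter the nucleus and bind kappaB motifs. Their target genes include cytokines, chemokines and also the inhibitors that end the response, such as Nfkbia and Tnfaip3. In bone marrow these cytokines are made largely by myeloid cells, and stem cells themselves carry several of the receptors.

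Promoter sequence is shown for members on both sides of the list, because matches to the kappaB motif were found among pathway components as well as among induced genes. RefSeq promoters of the mouse assembly GRCm38.p6, each from 250 bases before to 50 bases after the start of a transcript, were found for 23 of the 31 member genes. The NF-kB kappaB consensus, searched by name on both strands, matched a promoter of 10 of these 23 genes (43.5%), against 9.55% of all genes and 8.46% of all promoters. The share was 43.8% among the 16 pathway components with a promoter and 42.9% among the 7 cytokines and chemokines. Of these 7, Tnf, Il1a, Il1b and Ccl3 had no match, and no promoter was found for Ccl2, Ccl4 and Ccl5. The stretches below are upstream of the start, read 5′ to 3′ on the strand of the gene, with the matched bases in capitals. A match is a description of the letters and not evidence of binding.
Il6, a cytokine, chr5:30013045-30013104, plus strand: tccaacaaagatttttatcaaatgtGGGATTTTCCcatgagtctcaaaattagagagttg
Cxcl1, a chemokine, chr5:90891149-90891208, plus strand: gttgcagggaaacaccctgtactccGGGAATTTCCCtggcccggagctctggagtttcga
Cxcl2, a chemokine, chr5:90903777-90903836, plus strand: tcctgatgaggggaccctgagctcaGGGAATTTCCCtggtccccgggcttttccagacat
Nfkbia, an inhibitor, chr12:55492648-55492707, minus strand: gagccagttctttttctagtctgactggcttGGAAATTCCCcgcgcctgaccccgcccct
Rel, a subunit, chr11:23771027-23771086, minus strand: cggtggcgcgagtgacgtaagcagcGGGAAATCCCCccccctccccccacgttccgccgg
Nfkb2, a subunit, chr19:46304677-46304736, plus strand: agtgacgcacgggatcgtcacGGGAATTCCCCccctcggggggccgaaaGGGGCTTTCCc
Tnfaip3, a feedback inhibitor, chr10:19015411-19015470, minus strand: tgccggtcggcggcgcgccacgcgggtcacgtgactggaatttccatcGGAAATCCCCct
Tlr2, a receptor, chr3:83841747-83841806, minus strand: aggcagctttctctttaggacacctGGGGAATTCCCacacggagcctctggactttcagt
Cxcl1 and Cxcl2 lie on the same chromosome and hold the same capital letters in these stretches, which are identical at 30 of 60 positions. Both stretches were cut at the same distance from the match, so the capital letters are among these 30 by construction.

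Levels are log2 values of the deposited intensities after background correction and quantile normalization, and they rank arrays for a given probe set but not probe sets against each other. Where 3 values are given for a genotype, they are in the order of array numbers 1, 2 and 3. The number of arrays limits the precision. A total of 17289 probe sets with a mean level of at least 8.79 were tested, 25 of the 32 members among them. The other 7 (Traf1, Cd14, Il1a, Il1b, Il6, Cxcl2 and the dimmer Socs3 probe set) are given from a fit without this filter. The arrays numbered 3 stood apart in both genotypes. The 8 measured genes taken as HSC markers were Hlf, Mecom, Meis1, Procr, Slamf1, Kit, Angpt1 and Flt3. Their mean level ran from 10.99 to 11.51 in arrays 1 and 2 and was 9.36 in WT 3 and 9.27 in Selp-/- 3. Array 3 exceeded the mean of arrays 1 and 2 for 1 of them in WT, Slamf1, and for 0 in Selp-/-. Markers of monocytes and macrophages went the other way. Their mean level ran from 9.62 to 9.67 in arrays 1 and 2 and was 11.32 and 11.44 in arrays 3. Array 3 exceeded the mean of arrays 1 and 2 for 8 of 8 markers in each genotype. All 9 measured mast cell and basophil markers were also higher in both arrays 3, at a mean of 12.14 in WT 3 and 11.64 in Selp-/- 3 against 9.13 to 9.41 elsewhere. Neutrophil markers had a mean level of 12.07 and 12.02 in arrays 3, against 10.02 to 11.36 elsewhere. Array 3 exceeded the mean of arrays 1 and 2 for 8 of the 10 in WT and 9 of the 10 in Selp-/-. The part of these shifts in the results on array number was not tested, and in bulk samples fewer cells of a type and less RNA per cell cannot be told apart.

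No member passed the test for genotype. All 25 tested members had adjusted p-values above the threshold of 0.05 in limma, and 0 had an unadjusted p below it, where 0 of all 17289 tested probe sets passed after adjustment and 0.706% passed unadjusted. The fitted differences, Selp-/- minus WT, ran from -0.46 to 0.26 log2 units over the 32 probe sets, with 15 above 0 and 17 below and a median of -0.01. With the array number as a block, 0 members passed either, adjusted or unadjusted, where 3.64% of all tested probe sets had an unadjusted p below the threshold.

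The genotypes did not overlap in 1 of the 25 tested members, Tnfrsf1a, the main signalling receptor for TNF. That is near the share over all tested probe sets, 4.21%. The level of Tnfrsf1a was 11.03, 11.01 and 11.01 (WT) and 11.07, 11.17 and 11.19 (Selp-/-). Every Selp-/- array was thus higher, but by little: the means were 11.02 ± 0.01 and 11.15 ± 0.07 (SD, n = 3 each), a difference of 0.13 log2 units (SE 0.12) that did not pass the test. The widest genotype errors belonged to the chemokine Ccl3, at -0.46 (SE 1.07), and to the cytokine Il6, at -0.41 (SE 1.27). In both, 1 array of each genotype lay far above the other two.

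**Figure D1:**
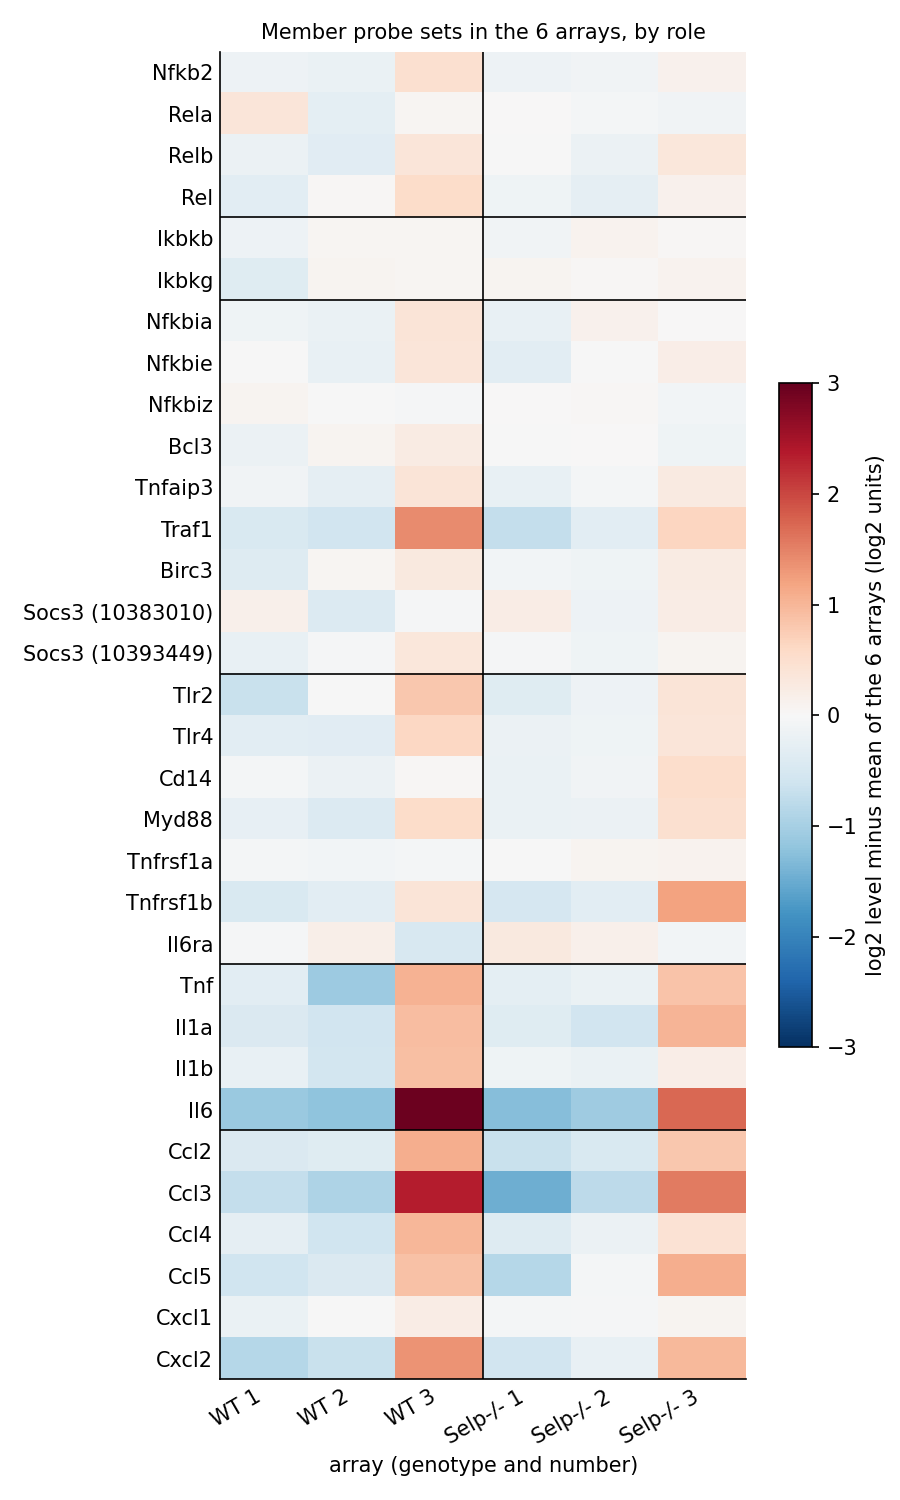
Log2 level of each of the 32 member probe sets minus its mean over the 6 arrays (colour, log2 units), with probe sets in rows grouped by role and arrays in columns. The columns WT 3 and Selp-/- 3 are the warmest in the rows of cytokines and chemokines, while Rela and the IKK subunits Ikbkb and Ikbkg stay pale.

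By array number the members differed more. The term for array number passed the limma test for 10 of 25 tested members, against 12.8% of all tested probe sets, and without the filter for 11 of 32, against 6.07%. Arrays 3 were then set against arrays 1 and 2, a contrast chosen with these arrays known to stand apart, so its p-values are not independent evidence of that. In it 12 of 25 tested members rose and 0 fell, where 9.13% of all tested probe sets rose and 11.7% fell. Of these 12, Tlr4, Tnf and Ccl4 reached the filter level only through arrays 3, and 9 of the other 22 tested members rose. The fit without the filter drops no member: in it 15 of 32 rose and 0 fell, where 5.13% of all probe sets rose and 6.23% fell. Without the filter, both arrays 3 lay above the other 4 arrays for 23 of 32 members, against 17% of all probe sets, and below them for 2, Nfkbiz and Il6ra, against 20%. Among tested members these counts were 17 of 25, against 20.1%, and 2 of 25, against 25.1%. Between arrays 2 and 1, 0 members passed, where 0.0521% of all tested probe sets did, and the fitted levels differed by at most 0.48 log2 units in any member.

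Among the cytokines, Il6 had the widest difference of all members in every setting run except that without normalization, where Ccl3 exceeded it. Il6, the acute-phase and B-cell stimulating cytokine, had deposited intensities of 181, 156 and 2137 in WT 1, 2 and 3 and of 162, 191 and 945 in Selp-/- 1, 2 and 3. On the log2 scale these were 6.75, 6.64 and 10.78 (WT) and 6.56, 6.79 and 9.57 (Selp-/-). The 4 arrays numbered 1 and 2 were dim and close together, and both arrays 3 stood clear of them. The difference of arrays 3 from arrays 1 and 2 was 3.49 log2 units (SE 0.27), or 11.3-fold, with an adjusted p of 0.00139 in the limma fit without the filter. The difference was 2.86 without background correction, 4.03 with an offset of 16, 2.88 without WT 3 and 4.07 without Selp-/- 3. Arrays 1 and 2 lie close to background here, so the fold depends on these choices.

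Il1a, the cell-associated form of interleukin 1, had levels of 7.15, 7.02 and 8.51 (WT) and 7.22, 7.00 and 8.61 (Selp-/-). The genotypes were alike to within 0.10 log2 units at each number. It was 2.76-fold higher in arrays 3 (1.46 log2 units, SE 0.10, adjusted p 0.000988 without the filter), though both arrays 3 stayed under the filter level. Tnf, the tumor necrosis factor itself, was at 8.90, 8.14 and 10.28 (WT) and 8.93, 9.01 and 10.08 (Selp-/-). Tnf was higher in both arrays 3 by 1.43 log2 units (SE 0.22, adjusted p 0.0137 without the filter), or 2.70-fold. Its lowest array, WT 2, was 0.88 log2 units below Selp-/- 2. Il1b, the secreted form of interleukin 1, was at 8.54, 8.20 and 9.65 (WT) and 8.62, 8.56 and 8.97 (Selp-/-). Both arrays 3 were again the highest of their genotype, but the difference of 0.83 log2 units (SE 0.22) did not pass, with an adjusted p of 0.0618 without the filter.

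The CC chemokines among the members, which attract monocytes, T cells and other leukocytes, all passed. Ccl3 had intensities of 1430, 1063 and 13106.5 in WT 1, 2 and 3 and of 1050, 1306.5 and 7466 in Selp-/- 1, 2 and 3. Its log2 levels were 10.43, 10.22 and 13.50 (WT) and 9.70, 10.37 and 12.70 (Selp-/-). It rose 7.57-fold in arrays 3, by 2.92 log2 units (SE 0.21, adjusted p 0.000367), the widest difference among the tested members. Ccl2, the chief monocyte attractant, had levels of 9.02, 9.08 and 10.54 (WT) and 8.77, 8.997 and 10.26 (Selp-/-). Its arrays 1 and 2 lay close together in both genotypes, and it rose 2.70-fold (SE 0.10 log2 units, adjusted p 0.000381). Ccl5, a T cell and monocyte attractant, was at 10.13, 10.30 and 11.61 (WT) and 9.87, 10.67 and 11.84 (Selp-/-). It rose 2.79-fold (adjusted p 0.00146) and, unlike Ccl2, Ccl3 and Ccl4, had its highest level in Selp-/- 3. Ccl4, a close relative of Ccl3, was at 8.59, 8.25 and 9.84 (WT) and 8.48, 8.68 and 9.28 (Selp-/-). The difference was 2.08-fold (adjusted p 0.0265 without the filter).

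The neutrophil attractants Cxcl1 and Cxcl2, whose promoter stretches above hold the same match, had differences of unlike size. Cxcl2 was at 7.13, 7.30 and 9.33 (WT) and 7.40, 7.74 and 8.95 (Selp-/-). Both arrays 3 stood clear of the rest, and the difference was 3.36-fold (1.75 log2 units, SE 0.18, adjusted p 0.00376 without the filter). Cxcl1 was at 8.85, 9.04 and 9.27 (WT) and 8.98, 9.02 and 9.13 (Selp-/-). Its arrays 3 were also the highest of the 6, but only by 0.23 log2 units (SE 0.11), which did not pass (adjusted p 0.191). The difference between these 2 genes was not tested.

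**Figure D2:**
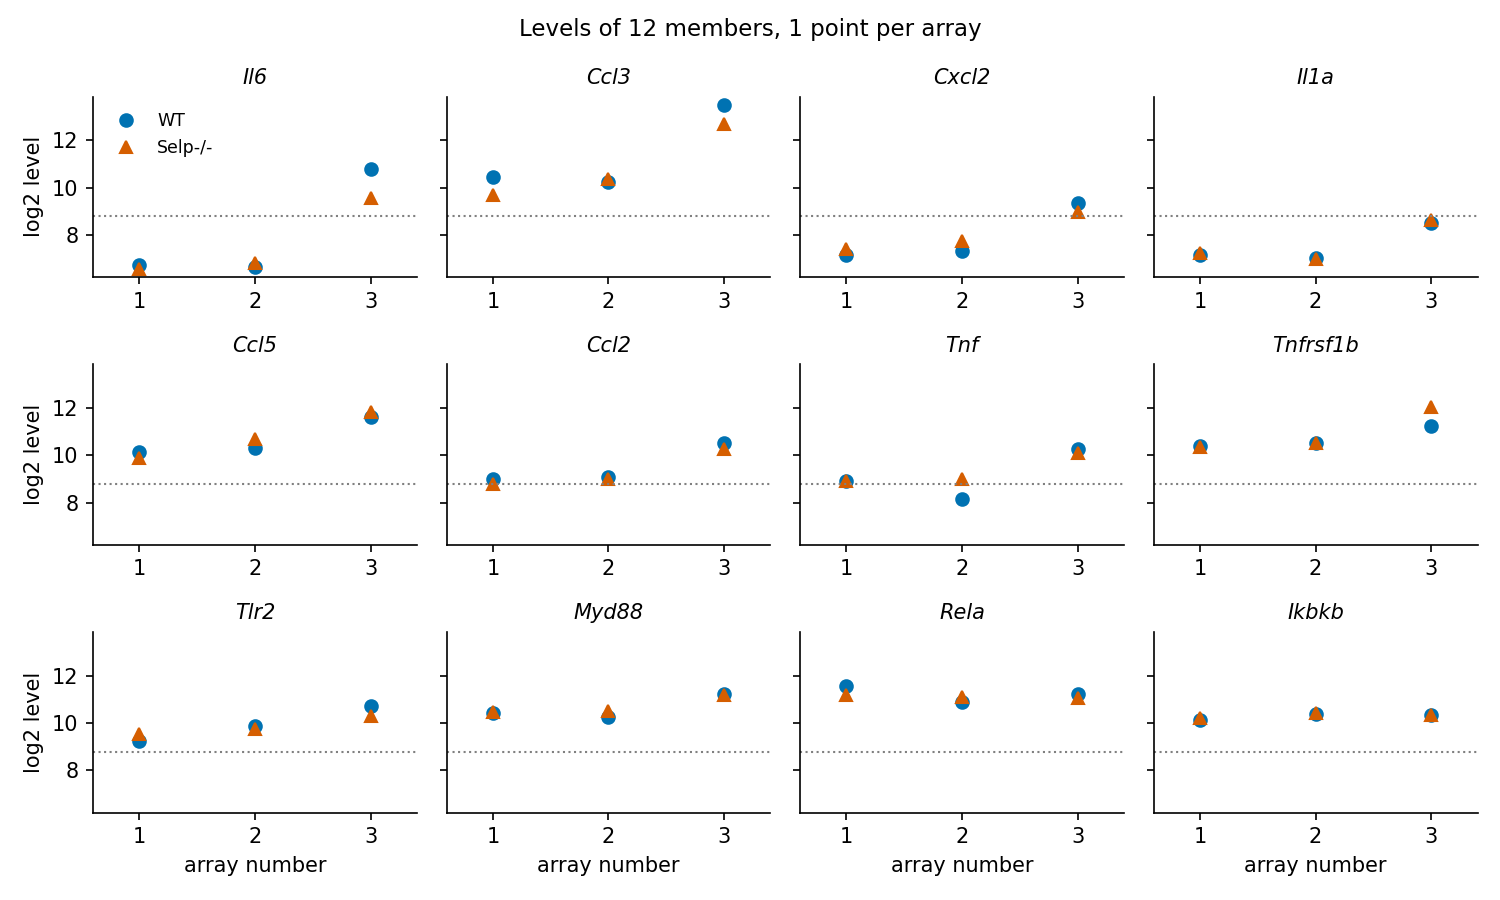
Log2 level (vertical axis) by array number (horizontal axis) for 12 members, 1 point per array, with circles for WT and triangles for Selp-/-, and the dotted line at the filter level of 8.79. Il6, Cxcl2 and Il1a lie under the line in arrays 1 and 2, Ccl3 spans 9.70 to 13.50, and the arrays 3 of Rela and Ikbkb lie within the range of the other arrays.

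Of the receptors and their adaptor, Tlr2, Tlr4, Myd88 and Tnfrsf1b rose in arrays 3. Tnfrsf1b, the TNF receptor found mainly on blood and immune cells, was at 10.40, 10.54 and 11.24 (WT) and 10.36, 10.53 and 12.06 (Selp-/-). It rose 2.28-fold (1.19 log2 units, SE 0.19, adjusted p 0.00784), and the increase was the wider in Selp-/-. Tlr2, the receptor for bacterial lipoproteins, was at 9.23, 9.88 and 10.70 (WT) and 9.53, 9.75 and 10.28 (Selp-/-). It rose 1.86-fold (0.89 log2 units, adjusted p 0.00989). Myd88, the adaptor that couples most Toll-like receptors and the IL-1 receptor to IKK, was at 10.42, 10.26 and 11.22 (WT) and 10.47, 10.49 and 11.16 (Selp-/-). Its arrays 3 were nearly equal in both genotypes, and it rose 1.72-fold (0.78 log2 units, SE 0.12, adjusted p 0.006). Tlr4, the receptor for lipopolysaccharide, was at 8.51, 8.50 and 9.46 (WT) and 8.64, 8.69 and 9.18 (Selp-/-). The difference was 0.74 log2 units (SE 0.14, adjusted p 0.0267 without the filter).

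The other 3 receptors did not pass. Cd14, which hands lipopolysaccharide to Tlr4, was dim at 8.67, 8.54 and 8.74 (WT) and 8.51, 8.60 and 9.23 (Selp-/-), so that only Selp-/- 3 stood out (adjusted p 0.168 without the filter). Tnfrsf1a differed by 0.03 log2 units (SE 0.11, adjusted p 0.872) between arrays 3 and the others. Il6ra, the receptor that binds interleukin 6, was at 10.14, 10.35 and 9.71 (WT) and 10.47, 10.33 and 10.09 (Selp-/-). Both its arrays 3 lay below the other 4, the opposite of its ligand, with a difference of -0.43 log2 units (SE 0.13, adjusted p 0.0554).

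Of the 4 measured NF-kB subunits 2 rose in arrays 3. Relb, the activating partner in the non-canonical pathway, was at 9.06, 8.90 and 9.60 (WT) and 9.22, 9.05 and 9.58 (Selp-/-). It rose by 0.53 log2 units (SE 0.10, adjusted p 0.0145). Nfkb2, the precursor of its p52 partner, was at 9.78, 9.74 and 10.41 (WT) and 9.77, 9.83 and 10.06 (Selp-/-), a rise of 0.46 log2 units (SE 0.13, adjusted p 0.0452). That call was lost in the fit without the filter (adjusted p 0.0722). Rel, the subunit prominent in lymphoid and myeloid cells, differed by 0.50 log2 units (SE 0.15), with 10.81, 11.15 and 11.66 (WT) and 10.99, 10.85 and 11.23 (Selp-/-), and missed the threshold (adjusted p 0.0583). Rela, the most widely used activating subunit, was at 11.54, 10.89 and 11.24 (WT) and 11.19, 11.11 and 11.06 (Selp-/-). Its arrays 3 lay inside the range of the others, at a difference of -0.03 log2 units (SE 0.14, adjusted p 0.906).

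The IKK subunits did not pass either. Ikbkb, the kinase of the canonical pathway, ran from 10.13 to 10.40 over the 6 arrays, with a difference of 0.06 log2 units (adjusted p 0.719). Ikbkg, the scaffold of the complex, ran from 9.21 to 9.69 and differed by 0.13 log2 units (SE 0.13, adjusted p 0.520).

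Of the IkB proteins and feedback regulators, Tnfaip3 and Traf1 passed. Traf1, an adaptor of TNF receptors and an NF-kB target gene, was at 7.75, 7.62 and 9.61 (WT) and 7.49, 7.89 and 8.84 (Selp-/-). It had the widest difference of the pathway components, 1.54 log2 units (SE 0.21) or 2.90-fold, with an adjusted p of 0.00897 without the filter. Tnfaip3, the ubiquitin-editing enzyme A20 that shuts off signalling to IKK, was at 9.44, 9.29 and 9.95 (WT) and 9.32, 9.48 and 9.83 (Selp-/-). It rose by 0.51 log2 units (SE 0.11, adjusted p 0.0236), with both arrays 3 above the other 4.

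Nfkbia, the IkB protein that is resynthesised first after activation, was at 10.60, 10.53 and 11.12 (WT) and 10.51, 10.85 and 10.73 (Selp-/-). WT 3 was its highest array but Selp-/- 3 lay below Selp-/- 2, and the difference of 0.30 log2 units (SE 0.16) did not pass (adjusted p 0.224). Nfkbie, another IkB protein, differed by 0.42 log2 units (adjusted p 0.0675), and Birc3, the ubiquitin ligase that protects cells from TNF-driven death, by 0.41 (adjusted p 0.0689). In both of these genes arrays 3 were the highest of the 6, and neither passed. Nfkbiz and Bcl3, nuclear IkB proteins that alter which targets are transcribed, differed by -0.09 (adjusted p 0.587) and 0.07 log2 units (adjusted p 0.743). The 2 probe sets of Socs3, the feedback inhibitor of interleukin 6 signalling, differed by 0.30 (adjusted p 0.124) and by 0.14 log2 units (adjusted p 0.525 without the filter), so neither passed.

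The calls of Nfkb2, Relb, Tnfaip3, Tlr2 and Myd88 were lost without WT 3, which leaves a single array 3 whose spread is assumed to be that of the other arrays. Their differences were then 0.26, 0.44, 0.43, 0.64 and 0.67 log2 units, with adjusted p-values of 0.438, 0.149, 0.197, 0.0781 and 0.0613, and 5 tested members rose (Tnfrsf1b, Tnf, Ccl2, Ccl3 and Ccl5) in place of 12. Tlr4 and Ccl4 were then under the filter level and not tested. Leaving out Selp-/- 3 left 9. Tnfaip3 also missed the threshold without WT 2 (adjusted p 0.0538), Selp-/- 1 (0.0762) or Selp-/- 3 (0.0565), and Nfkb2 without WT 1 (0.112), WT 2 (0.115) or Selp-/- 1 (0.0811).

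**Figure D3:**
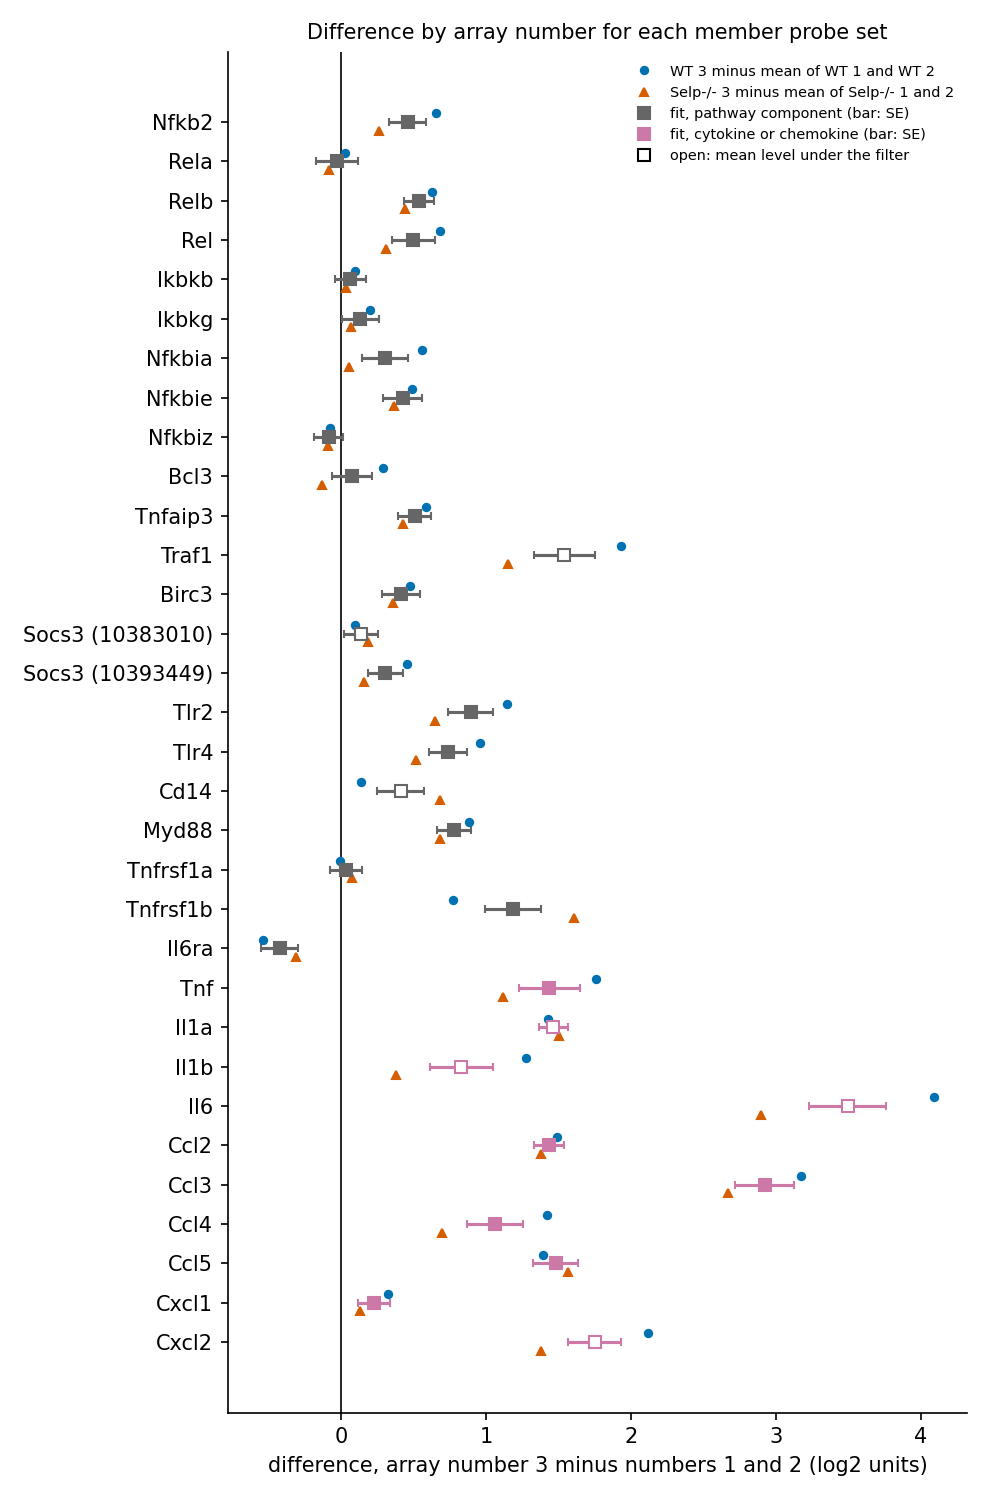
Difference between array 3 and arrays 1 and 2 (log2 units, horizontal axis) for each member probe set: squares are fitted values with bars of 1 SE, circles the WT arrays alone and triangles the Selp-/- arrays alone, with open squares for probe sets under the filter. Fitted values of pathway components run from -0.43 (Il6ra) to 1.54 (Traf1), and those of cytokines and chemokines from 0.23 (Cxcl1) to 3.49 (Il6).

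At the median, the 10 member cytokines and chemokines thus moved further than the member pathway components. Over the 22 probe sets of pathway components the median difference between arrays 3 and the others was 0.41 log2 units, 19 were above 0, and 2 exceeded 1 log2 unit (9.09%). Over the 10 cytokines and chemokines the median was 1.45, 10 were above 0 and 8 exceeded 1 (80%), against 2.13% of all 28815 probe sets. By role the median was 0.48 for the 4 subunits, 0.10 for the 2 IKK subunits, 0.30 for the 9 probe sets of IkB proteins and feedback regulators and 0.74 for the 7 receptors and adaptor. It was 1.45 for the 4 cytokines and 1.46 for the 6 chemokines. The order was seen in each genotype: the components had a median of 0.48 in WT and 0.29 in Selp-/-, and the cytokines and chemokines of 1.46 and 1.38. These counts and medians describe the lists and were not tested against each other. In the same arrays the mean level of monocyte and macrophage markers was higher by 1.66 log2 units in WT and 1.81 in Selp-/-, and that of mast cell and basophil markers by 2.94 and 2.29. Of the 8 monocyte and macrophage markers, Adgre1 moved furthest and Cx3cr1 least. Adgre1, the macrophage surface antigen F4/80, ran from 7.93 to 8.36 in arrays 1 and 2, under the filter level. It was at 11.95 in WT 3 and 11.49 in Selp-/- 3. Cx3cr1 ran from 9.58 to 10.005 in arrays 1 and 2 and was at 9.93 in WT 3 and 9.97 in Selp-/- 3.

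Within array 3 most members were lower in Selp-/-. There, 24 of the 32 probe sets were lower in Selp-/- than in WT, against 14375 of all 28815 probe sets. The median difference of the cytokines and chemokines, Selp-/- minus WT, was -0.05 at number 1, 0.26 at number 2 and -0.33 at number 3. For the components it was 0.05, 0.08 and -0.09. These are differences of single arrays with no replicate check.

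The members furthest apart at number 3 went both ways. Il6 was lower in Selp-/- by 1.21 log2 units there, having differed by -0.19 at number 1 and 0.15 at number 2. Ccl3 was lower in Selp-/- at numbers 1 and 3, at -0.73 and -0.80, and higher at number 2, at 0.16. Traf1, Il1b and Ccl4 followed the pattern of Il6 at number 3, at -0.77, -0.68 and -0.57. Tnfrsf1b was the reverse, at 0.82 log2 units higher in Selp-/- 3 and within 0.04 at the other numbers. Cd14 and Il6ra were also higher in Selp-/- 3, at 0.49 and 0.38.

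A test of whether the step to array 3 differed between genotypes found no member past the threshold in limma. Of the 25 tested members 0 passed, where 0.0521% of all tested probe sets did, and 2 had an unadjusted p below 0.05, Tnfrsf1b and Ccl4, against 4.15% of all tested probe sets. The adjusted p was 0.945 for Tnfrsf1b, and 0.695 for Il6 in the fit without the filter. In the fit without the filter, the unadjusted p was below 0.05 for Il6, Il1b, Cxcl2, Traf1 and Tnfrsf1b but not for Ccl4. The share of all probe sets with such a p was not counted in that fit. After adjustment 0 of all 28815 probe sets passed there. Array 3 of the genotypes also differed in other respects. All 9 mast cell and basophil markers and all 5 megakaryocyte markers were lower in Selp-/- 3 than in WT 3, and Xist, the RNA of the inactive X chromosome, was at 8.002 in Selp-/- 3 against 12.08 to 13.60 in the other 5 arrays. The part of these differences in the values at number 3 was not tested.

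**Figure D4:**
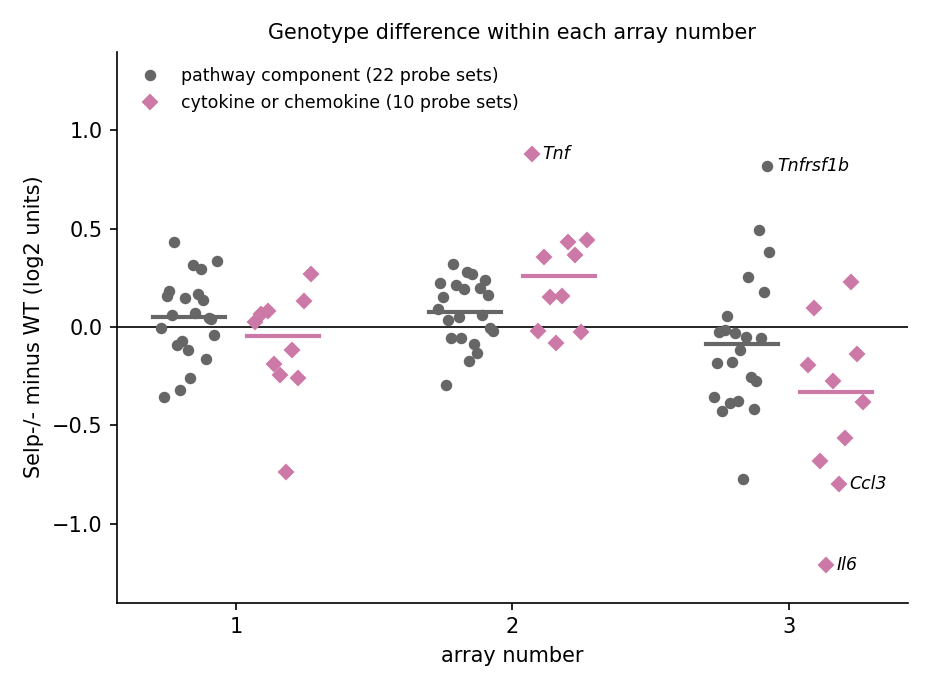
Difference between the genotypes, Selp-/- minus WT (log2 units, vertical axis), at each array number for the 22 probe sets of pathway components (circles) and the 10 cytokines and chemokines (diamonds), with a line at each median. The points spread furthest at number 3, from -1.21 (Il6) to 0.82 (Tnfrsf1b), where the median of the cytokines and chemokines was -0.33.

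Other genes of the pathway were taken from 2 further lists. Of 47 probe sets of other signalling genes (receptors, adaptors, kinases and ubiquitin enzymes), 10 rose and 0 fell in arrays 3 in the fit without the filter, where 5.13% of all probe sets rose and 6.23% fell, and the median difference was 0.15 log2 units. Of the 42 tested, 9 rose and 0 fell, where 9.13% and 11.7% of all tested probe sets did. These include Il18r1 and Tlr7, which reached the filter level only through arrays 3, and 7 of the other 40 rose. Malt1, a protease that relays antigen-receptor signals to IKK, rose by 0.69 log2 units (SE 0.13, adjusted p 0.0128). Ltbr and Tnfrsf11a, receptors that feed the non-canonical pathway in which Relb and Nfkb2 act, rose by 0.55 (adjusted p 0.0132) and 0.54 log2 units (adjusted p 0.0173). Il18r1, a receptor of interleukin 18, was at 8.74, 8.74 and 9.92 (WT) and 8.55, 8.74 and 9.28 (Selp-/-), a difference of 0.91 log2 units (adjusted p 0.0192 without the filter). Tlr1, Tlr7, Tlr8 and Il1r2 had wider differences than these, at 1.88, 1.16, 2.51 and 1.22 log2 units, and are named here after their values were seen. In the fit without the filter Tlr1, Tlr8 and Il1r2 passed (adjusted p 0.000781, 0.011 and 0.0164), and Tlr7 did not (adjusted p 0.06). In WT and Selp-/-, each with a single array 3, Tlr7 differed by 0.46 and 1.85 log2 units and Tlr8 by 1.67 and 3.36. Tlr1 differed by 1.79 and 1.97, and Il1r2 by 1.62 and 0.82. The other measured Toll-like receptors of this list, Tlr3, Tlr6 and Tlr9, had fitted differences of -0.22, 0.36 and 0.42 log2 units and did not pass.

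Of 30 probe sets of other induced genes, 16 rose and 1 fell in the fit without the filter, where 5.13% of all probe sets rose and 6.23% fell. The median was 0.64 log2 units. A difference above 1 log2 unit was seen in 11 of the 30 (36.7%), against 2.13% of all probe sets and 80% of the member cytokines and chemokines. The gene that fell was Il18, an interleukin of the IL-1 family, by 1.05 log2 units (adjusted p 0.00959), named here after its value was seen. Of the 20 tested, 12 rose and 0 fell, where 9.13% and 11.7% of all tested probe sets did. The 20 include 6 that reached the filter level only through arrays 3, and 7 of the other 14 rose. Ccl6, Cxcl16 and Il1rn are among those 6, so their p-values are given from the fit without the filter.

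Ccl6, a myeloid chemokine, was at 8.88, 8.75 and 13.27 (WT) and 8.76, 8.62 and 12.63 (Selp-/-), a difference of 4.19 log2 units (adjusted p 0.000227). Cxcl16, a chemokine and scavenger receptor, was at 8.06, 8.11 and 10.40 (WT) and 8.21, 8.16 and 10.33 (Selp-/-), a difference of 2.23 (adjusted p 0.0006). Il1rn, the natural antagonist of the IL-1 receptor, was at 8.55, 8.58 and 10.31 (WT) and 8.64, 8.52 and 10.72 (Selp-/-), a difference of 1.94 (adjusted p 0.00111). In all 3 genes the arrays 1 and 2 lay close together and both arrays 3 stood clear of them. Lcn2, a siderophore-binding protein of neutrophil granules, had another pattern, at 11.43, 8.89 and 12.60 (WT) and 11.03, 9.003 and 12.30 (Selp-/-). Array 2 was its lowest in both genotypes, as it was for the neutrophil markers, and Lcn2 was the only gene of either list to pass between arrays 2 and 1 (adjusted p 0.0213). No gene of either list passed for genotype.

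**Figure D5:**
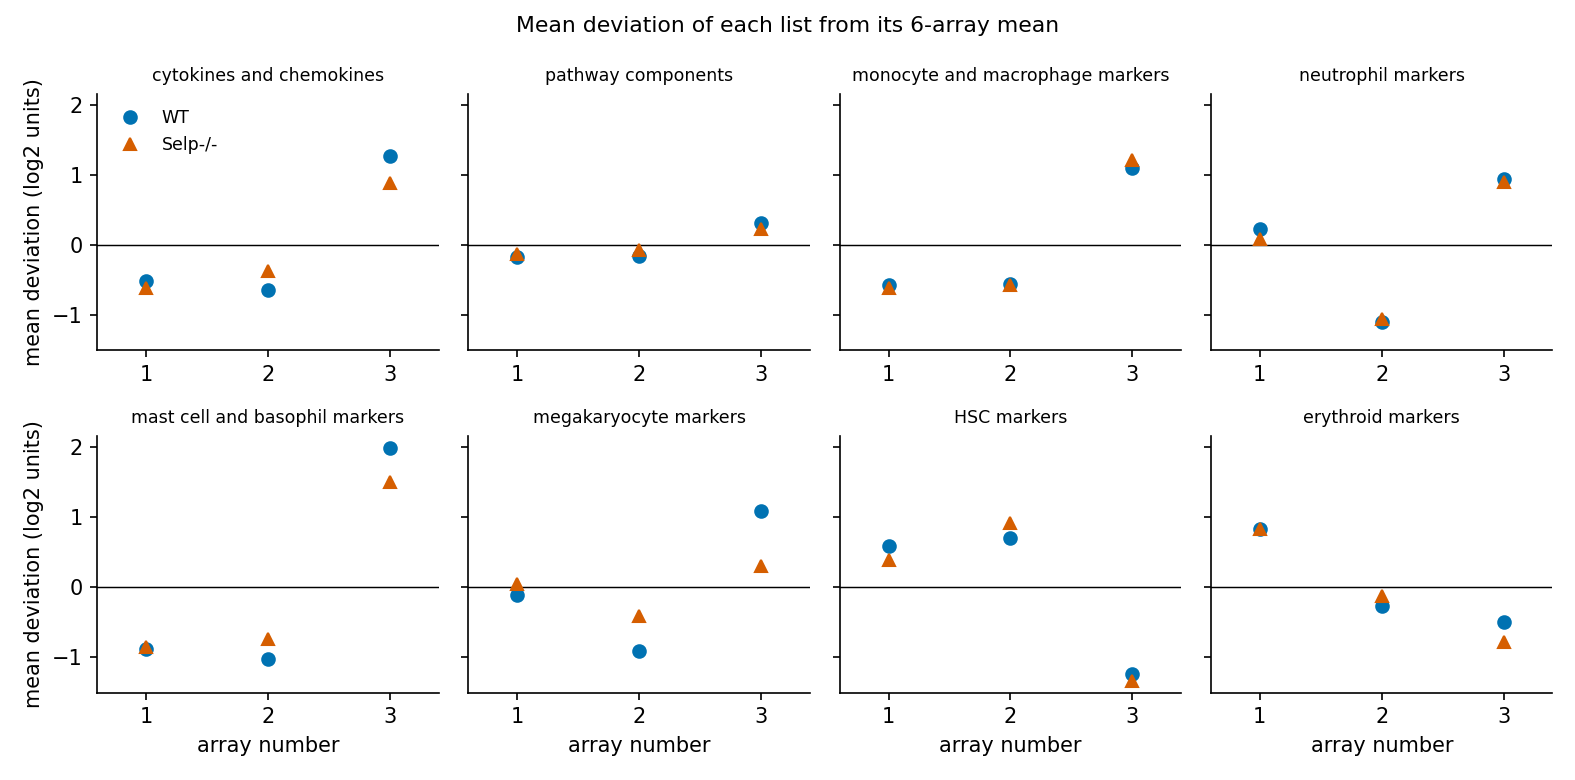
Mean deviation of each gene list from its own mean over the 6 arrays (log2 units, vertical axis) by array number, with circles for WT and triangles for Selp-/-. Cytokines and chemokines stand at 1.27 in WT 3 and 0.88 in Selp-/- 3, pathway components at 0.31 and 0.23, and markers of monocytes, mast cells and neutrophils are also highest at number 3 while HSC markers are lowest there.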

How the data were processed

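The authors deposited linear probe set intensities of 6 1-colour Affymetrix whole-transcript arrays. Per the submitters' processing notes the tool was MAS5, whose version is not given. All intensities were multiples of 0.5 with medians from 563 to 751, so no scaling to a common level was visible, and any scale factor is unknown. They were corrected with normexp (offset 50), log2-transformed and quantile normalized across arrays in limma 3.58.1 (R 4.3.3). Probe sets under the 40th percentile of mean log2 level (8.79) were left out. Models were fitted to all tested probe sets (lmFit, eBayes with a trend, two-sided), with Benjamini-Hochberg adjustment over all of them and a threshold of 0.05: genotype, array number with genotype, number 3 against 1 and 2, and their interaction. The fits were tested on simulated data. Without the block, genotype differences of 0.5 and 1 log2 units were mostly not recovered, and with it those of 0.5 were mostly not. Differences of 0.5 log2 units between arrays 3 and the others were mostly not recovered either. All but the widest interaction differences were mostly not recovered. A member that did not pass may therefore still differ. Deviations from the genotype mean correlated at 0.428, 0.526 and 0.814 between arrays of the same number, and the numbers of the titles were taken as pairs, although numbers 1 and 2 also correlated across genotypes, at 0.37 and 0.514. All members were accounted for. Of each further list 4 tested genes, those of smallest p for array number, were named with values by rule. Tlr1, Tlr3, Tlr6, Tlr7, Tlr8, Tlr9, Il1r2 and Il18 were added after their values were seen. Members and lists were chosen with earlier results of these data known. Names came from the platform annotation, updated through RefSeq. Alternatives changed the background correction, normalization, filter, genotype term, block and arrays included.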

Additional observations from a re-analysis of the deposited data

How the results depend on the processing

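The count of tested members past the threshold for genotype was 0 under every alternative run, the replicate block included (lowest adjusted p of a member 0.983), and so was that of the interaction, which could not be fitted without WT 3 or Selp-/- 3. The count for array number was 10 and became 18 without normalization; leaving out 1 array gave 5 to 9. Of members higher in arrays 3 there were 12, 18 without normalization (where 22.6% of all probe sets were called higher and the median of all shifted by 0.19), 10 and Il6ra lower with a filter at the 50th percentile, 15 of 32 with none, and 5 (without WT 3) to 14 on leaving out 1 array. The median of the components was 0.41, and 0.55 without normalization (0.36 relative to all probe sets; 0.28 to 0.48 on leaving out 1 array). That of the cytokines and chemokines was 1.45, with 1.23 without background correction, 1.51 with an offset of 16 and 1.36 to 1.54 on leaving out 1 array. Differences near 0 changed sign in arrays 3: Rela was 0.021 with median centring, 0.24 without normalization and -0.16 to 0.092 on leaving out 1 array; Nfkbiz was 0.13 without normalization; Bcl3 ran from -0.13 to 0.28 and Tnfrsf1a from -0.0077 to 0.068 on leaving out 1 array. The genotype difference of Tnfrsf1b was -0.021 over numbers 1 and 2 alone, and on leaving out 1 array ran from -0.28 to 0.57, that of Il6 from -1.37 to 0.94 and that of Ccl3 from -1.35 to 0.60. Il1b passed with median centring (adjusted p 0.0418), without background correction (0.0441) and without the genotype term (0.0386), and Birc3 without the genotype term (0.0454). The cause of these changes was not tested. Probe sets under the filter lie close to background, which limits Il6, Il1a, Il1b, Cxcl2, Traf1 and Cd14.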
